A study of Mus musculus with 4 samples.

Results

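Glutathione is the main thiol antioxidant of neurons, and its supply is limited by cysteine. Cells take up cystine through the exchanger xCT (Slc7a11), make cysteine from methionine by transsulfuration (Cbs, Cth), and join it to glutamate and glycine in 2 steps, by glutamate-cysteine ligase (Gclc, Gclm) and glutathione synthetase (Gss). The enzyme encoded by Chac1 cuts glutathione apart again. ATF4, the main transcription factor of the integrated stress response, is known as an activator of Chac1, Slc7a11 and Cth, whereas Gclm, Nqo1 and Hmox1 are classical targets of the antioxidant factor NRF2.

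ATF4 occupancy at 10 such genes was examined: Chac1, Slc7a11, Cth, Cbs, Gclc, Gclm, Gss, Gsr, Nqo1 and Hmox1. They were taken by name from glutathione breakdown, synthesis and recycling and from cysteine supply, with Nqo1 and Hmox1 as antioxidant enzymes, out of 21887 coding genes in a RefSeq table, and all 10 matched a symbol there. A gene was counted as having a peak when the listed summit of an ATF4 peak lay inside it or within 50 kb of it.

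The peaks came from ATF4 chromatin immunoprecipitation and sequencing in primary cortical neurons of CD1 mouse embryos of day 14.5 to 15. CD1 is an outbred stock. All cultures received 2 µM cytosine arabinoside against dividing cells and lentivirus on day 6, and were harvested on day 11. One library carried a control hairpin (shControl, genotype WT) and one a hairpin against Opa1 (shOpa1, Opa1 knock-down), the GTPase that fuses inner mitochondrial membranes. The series has 4 libraries, 1 in each group, and the IgG and input libraries, both from control neurons, were not analysed here. No condition has a replicate, so values of both conditions are set side by side without a test. The control list held 93 peaks with 2424 tags in all and the knock-down list 952 with 33318. Without known sequencing depth, absence from a list does not show that a site is unbound. A peak's fold enrichment over the caller's background and its tag number are the authors' values. In all 84 control and 886 knock-down peaks of the commoner of the 2 score forms in the lists, the listed summit lay within 1 bp of the middle of the peak, so it is a centre and not a mapped point of highest signal.

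ATF4 peaks overlapped the annotated promoter windows of Chac1 and Slc7a11 in both lists. The Chac1 control peak ended before the gene's start, and the other 3 peaks spanned the start. The 250 bases before each annotated start are shown because they hold matches to the composite element at which ATF4 pairs with C/EBP factors. The sequences are from RefSeq, build GRCm38.p6, whose chromosomes have mm10 coordinates. They are written 5′ to 3′ in the direction of transcription. Capitals mark the element TGATGNAA, which reads TTNCATCA on the other strand, and its variant TGACGCAA.
Chac1, chr2:119350992-119351241, plus strand: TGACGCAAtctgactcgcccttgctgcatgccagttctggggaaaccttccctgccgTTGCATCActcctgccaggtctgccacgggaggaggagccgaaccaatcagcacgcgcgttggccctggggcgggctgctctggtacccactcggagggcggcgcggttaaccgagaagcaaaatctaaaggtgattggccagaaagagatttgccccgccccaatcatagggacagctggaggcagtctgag
Slc7a11, chr3:50443614-50443863, minus strand: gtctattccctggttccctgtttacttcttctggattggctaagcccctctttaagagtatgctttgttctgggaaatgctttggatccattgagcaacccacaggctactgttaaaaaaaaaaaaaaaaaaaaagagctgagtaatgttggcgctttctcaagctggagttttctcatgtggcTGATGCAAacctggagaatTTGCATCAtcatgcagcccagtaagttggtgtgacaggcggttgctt

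The Chac1 window held 1 element, beginning at position -193 from the start, and 1 copy of the variant at position -250, which is the first base of the window. The Slc7a11 window held 2 elements, at -66 and -47, in opposite orientation and 11 bases apart. The second is the exact reverse complement of the first. None of these matches overlapped another. All 4 lay under the peak of their gene in both lists. The listed Slc7a11 centres were 19 bp (control) and 13 bp (knock-down) from the nearer element. At Chac1 they were 89 and 49 bp from the element and 32 and 1 bp from the variant, which was added to the search after the sequences were seen. The Chac1 control centre lay before the first base of the window. Bases of the peaks outside the windows were not searched, so nearer matches there would have been missed.

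**Figure D1:**
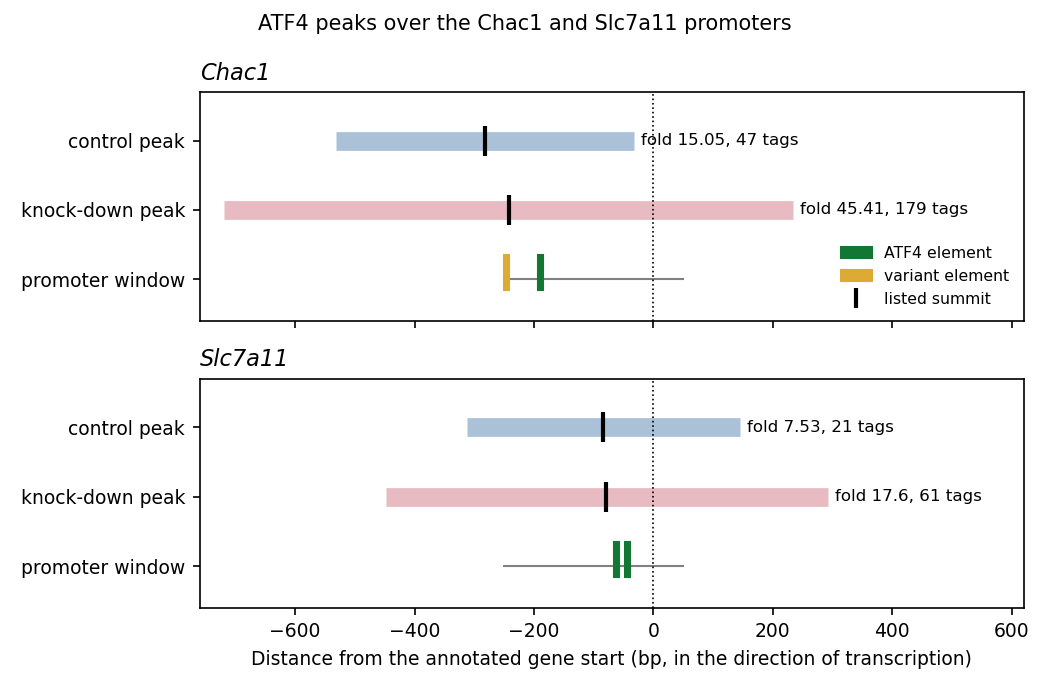
Peaks over the Chac1 and Slc7a11 promoters, drawn by distance from the annotated gene start in bp. Bars are the control and knock-down peaks with their fold and tags, black ticks their listed summits, the grey line the RefSeq promoter window and coloured blocks the sequence elements. Both peaks of each gene cover its elements, and the knock-down peaks are the wider.

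Over all 21263 RefSeq promoter windows of coding genes, each of 300 bases (250 before and 50 after the start), 3.60% held TGATGNAA on either strand and 0.644% the variant. Of the 87 windows under a knock-down peak 28 held the element, or 32.2%, as did 9 of the 18 under a control peak. Among the 10 genes, 6 had a window in the table: Chac1, Slc7a11, Cbs, Gclm, Gss and Nqo1. The element was in the windows of Chac1 and Slc7a11 only. Those 2 of 6 genes were also the ones with a promoter window under a peak, in each list. Over the 17492 coding genes in the promoter table, the share with a window under a peak was 0.0972% for control peaks and 0.44% for knock-down peaks. A match to these letters describes the sequence and does not by itself show a binding site.

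Chac1, the glutathione-degrading gamma-glutamylcyclotransferase, had the strongest peaks of the 10 genes. Its control peak at chr2:119350710-119351209 (mm10) was centred 282 bp before the gene, where the fold was 15.05 and the peak held 47 tags (exact 95% interval 34.5 to 62.5, counting error only). The knock-down peak at chr2:119350523-119351476 was centred 242 bp before the gene, where the fold was 45.4 and the peak held 179 tags (154 to 207). These peaks ranked 5 of 93 and 3 of 952, and the 954 bp knock-down peak spanned the whole 500 bp control peak.

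A second peak counted for Chac1 in the knock-down list alone. Over the whole knock-down list, 80 of the 952 peaks overlapped a control peak, so most were in that list alone. Its listed summit was 16041 bp beyond the 3′ end of Chac1, with a fold of 5.05 and 22 tags (interval 13.8 to 33.3), and ranked 907 of 952. Its nearest coding gene was Ino80, which encodes a chromatin remodelling ATPase, 2675 bp away. It is a weak peak of the less common score form, and only 5.46% of the knock-down list had a lower fold.

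Slc7a11 encodes the cystine-importing subunit of the exchanger that trades glutamate for cystine. Its control peak at chr3:50443468-50443926 had 21 tags (95% interval 13.0 to 32.1), a fold of 7.53 and rank 66 of 93. The knock-down peak at chr3:50443321-50444061 had 61 tags (46.7 to 78.4), a fold of 17.6 and rank 67 of 952. The lists differ in length, so these ranks show no change. The control score of 53.74 lay close to the lowest score of its form in that list, 50.15.

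Both Slc7a11 peaks lay inside the annotated gene, which spans 134 kb, but their centres were 85 bp (control) and 79 bp (knock-down) before the annotated start in the promoter table. That start lies 55474 bp inside the gene's outer end. Measured from the gene's ends alone these peaks would read as deep inside Slc7a11, whereas from the annotated start they are promoter peaks. A further knock-down peak lay 5103 bp before the same start and also inside the gene. It had 19 tags (95% interval 11.4 to 29.7) and a fold of 7.17, and ranked 701 of 952. Like most peaks of the knock-down list, it overlapped no control peak.

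Gclm, the modifier subunit of the ligase that makes gamma-glutamylcysteine, was the only other gene of the 10 with a peak in the window. Like most peaks of the knock-down list, it was in that list alone. It lay 40779 bp beyond the 3′ end of the gene, with 30 tags (95% interval 20.2 to 42.8) and a fold of 8.60, and ranked 425 of 952. Dnttip2 was nearer to it, at 22723 bp. No peak covered the Gclm promoter. That promoter held a match at -134 to the antioxidant response element of NRF2, searched as TGACNNNGC on both strands and found in 13.0% of all promoter windows. The match is shown in capitals because Gclm was the 1 gene of the 6 in the table to have it. At a share of 13.0%, a single match among 6 genes does not set Gclm apart. Matches outside the windows would have been missed, and Cth, Gclc, Gsr and Hmox1 had no window to search.
Gclm, chr3:122245413-122245441, plus strand: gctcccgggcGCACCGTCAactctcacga

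The other 7 genes had no peak within 50 kb in either list. Among the transsulfuration enzymes, Cth (cystathionine gamma-lyase) had its nearest knock-down peak 611 kb away and its nearest control peak 49.5 Mb away. For Cbs (cystathionine beta-synthase) both lists gave a site with Cdkn1a as its nearest coding gene, 2.53 Mb away. Among the enzymes of synthesis and recycling, Gclc, the catalytic ligase subunit, had its nearest knock-down peak at 709 kb. The distance was 626 kb for Gss and 447 kb for Gsr, the reductase that regenerates glutathione from its oxidised form. Gsr was the gene closest outside the window and Gclm the one closest to its limit inside it. The genes farthest from a knock-down peak were Nqo1 (a quinone reductase) at 2.79 Mb and Hmox1 (haem oxygenase) at 4.46 Mb. Gclm, named above as an NRF2 target like them, had one at 40.8 kb.

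**Figure D2:**
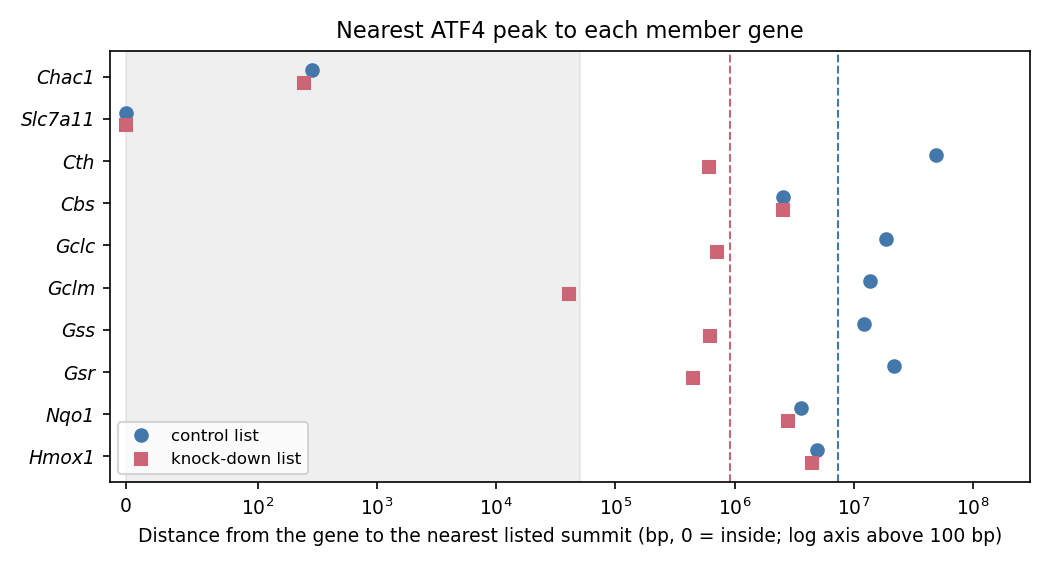
Distance in bp from each of the 10 genes to the nearest listed ATF4 summit in the control list (circles) and the knock-down list (squares). The axis is logarithmic above 100 bp, 0 means inside the gene, the shaded range is the 50 kb window and dashed lines are the medians over all coding genes with a peak on their chromosome. Chac1 and Slc7a11 lie in the window in both lists and Gclm in the knock-down list, while the other 7 genes lie at 447 kb or more.

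In counts, 2 of the 10 carried a control peak, against 0.927% of all coding genes by the same rule. In the knock-down list 3 of the 10 had one, against 6.23%. The 10 genes were chosen with earlier results of these data known, so these shares are a description. The median distance from a gene to its nearest knock-down peak was 618 kb for the 10 genes and 909 kb for coding genes with a peak on their chromosome, which leaves out 256 of the 21887. In the control list these medians were 8.52 and 7.43 Mb, with 1222 genes left out. The 10 genes have a median length of 27.1 kb and all coding genes one of 17.2 kb, and longer genes offer more room for a summit. The part of gene length in these counts was not tested.

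Of the 80 control peaks that overlapped a knock-down peak, those of Chac1, Slc7a11 and Slc3a2 belong to this pathway. Slc3a2 encodes the heavy chain that carries xCT, as well as other light chains, to the plasma membrane. Its control peak had the same values as that of Slc7a11, 21 tags (95% interval 13.0 to 32.1) and a fold of 7.53, and ranked 68 of 93. That fold is the median of the control list, and the shared peak 186 bp from Arl14ep had the same fold and tags. The Slc3a2 control score of 53.59 also lay close to the lowest of its form, 50.15. Its knock-down peak had 116 tags (95.9 to 139), a fold of 38.2 and rank 7 of 952. The peaks of both subunits of the cystine exchanger thus had equal folds and tags in the control list, at common values, and unequal ones in the knock-down list. The Slc3a2 centres lay 870 and 873 bp after an annotated start.

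The ratio of the knock-down to the control fold was 5.08 at Slc3a2, the highest of the 80 shared sites. It was 3.02 at Chac1 (place 13 from the top) and 2.34 at Slc7a11 (place 36), with a median of 2.26 over the 80. These folds come from separate calls on 1 library each, and the control peaks of Slc3a2 and Slc7a11 scored close to the lowest of their form. The ratio describes the lists, and the parts of depth and immunoprecipitation yield in it were not tested.

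**Figure D3:**
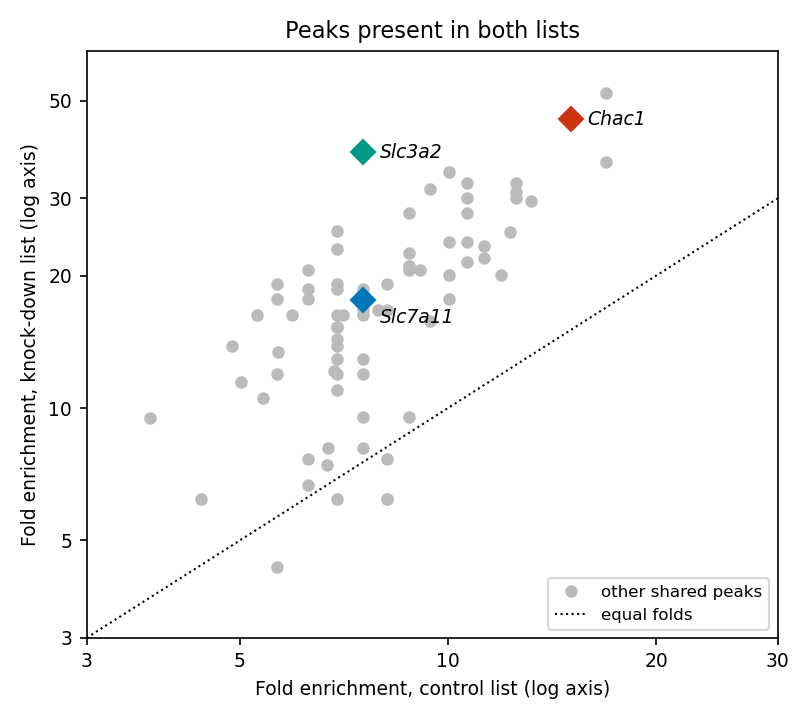
Fold enrichment of the 80 peaks present in both lists, control on the x axis and knock-down on the y axis, both logarithmic, with 1 point per peak. The dotted line marks equal folds. Slc3a2 and Slc7a11 share a control fold of 7.53 and stand at 38.2 and 17.6 in the knock-down list, and Chac1 is at the upper right.

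The shared peaks most like that of Chac1 were ranked by their distance from it in log2 fold in both lists (2 libraries, 80 peaks). The nearest was the site 7281 bp from Gm42048, with folds of 16.9 and 52.1 (log2 distance 0.26). Next came those inside Tmx3 (0.36), 177 bp from Herpud1 (0.55), inside Nup62 and Il4i1b (0.61) and 31419 bp from Creb3l1 (0.65). Slc3a2 stood at 1.03 and Slc7a11 at 1.69.

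The wider glutathione and redox system was followed through 97 further genes in 9 lists. In the control list 1 of them had a peak within 50 kb, Slc3a2 (1.03%, against 0.927% of all coding genes). In the knock-down list 10 had one (10.3%, against 6.23%), and for 6 of these 10 the gene itself was the nearest coding gene to a peak. The counts by list that follow stand against the same shares of all coding genes. How often a counted gene is also the nearest one was not computed over all coding genes. None of these lists was tested, and they too were chosen with earlier results of these data known.

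Among 9 carriers of cystine, cysteine and glutamate, Slc3a2 and Slc1a4 had a peak. Slc1a4, a neutral amino acid exchanger that also takes cysteine, had a knock-down peak centred 28 bp after its annotated start, with a fold of 11.95 and 49 tags. Among 9 genes of cysteine disposal and sulfide, Got1, the cytosolic aspartate aminotransferase, had a knock-down peak 98 bp before its start, with a fold of 13.9 and 48 tags. Csad, of taurine synthesis, had one 26023 bp away with a fold of 9.56, but that summit lay inside Soat2. The Slc1a4 and Got1 peaks covered an element of the same letters as at Chac1, and the listed Got1 centre fell inside it. Of the 87 promoter windows under a knock-down peak, 28 held TGATGNAA, so most did not. The Slc1a4 and Got1 elements are shown with 11 bases on either side because both lie in the promoter window of their gene.
Slc1a4, chr11:20332699-20332728, minus strand: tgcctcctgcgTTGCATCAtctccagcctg
Got1, chr19:43524689-43524718, minus strand: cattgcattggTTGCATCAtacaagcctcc

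Among 15 regulators of the NRF2 system and enzymes of NADPH supply, 3 had a knock-down peak. Nfe2l1, a relative of NRF2 known for control of proteasome genes, held one inside the gene, 1142 bp after an annotated start, with a fold of 9.56 and 42 tags. The peak counted for Nfe2l2, the NRF2 gene itself, lay 32209 bp away with a fold of 9.08 and was nearer to Gm50595. That counted for Mafg, a small MAF partner of NRF2, lay 8812 bp away with a fold of 11.95, and was 19 bp from Pycr1, an enzyme of proline synthesis. That peak covered a TGATGCAA element in the Pycr1 promoter window. So 1 of these 3 regulators had a peak that was nearest to itself.

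Of 11 genes of glutathione breakdown and the gamma-glutamyl cycle, Ggct alone had peaks. They were 2 knock-down peaks 45043 and 46008 bp away, with folds of 11.5 and 11.95, and both lay inside Gars, the glycyl-tRNA synthetase gene. Chac2, the paralogue of Chac1, had none. Of 20 glutathione-using enzymes, Mgst3 had a peak 24316 bp away (fold 7.17). Of 14 thioredoxin, peroxiredoxin and superoxide enzymes, Txn1 had one 7852 bp before the gene (fold 7.42). These were knock-down peaks, and both genes were the nearest coding genes to them. The 8 genes of the methionine cycle, 4 of glutathione transport and 7 of haem and iron handling had no peak within 50 kb in either list.

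Set beside related amino acid genes counted by the same rule, 5 of 11 enzymes of serine synthesis and one-carbon metabolism and 7 of 13 amino acid transporters had a knock-down peak, against 3 of the 10 glutathione and cysteine genes and 6.23% of all coding genes. In the control list the numbers were 1, 3 and 2, against 0.927% of all coding genes. One of the 3 transporters was Slc7a5, whose control peak lay 29949 bp away. That peak is the shared site near Gm42048 named above, and Gm42048 was the nearer gene. Slc3a2 and Slc1a4 stand both in the transporter list and among the carriers above. The lists are short and were chosen with earlier results of these data known, and their differences were not tested.

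**Figure D4:**
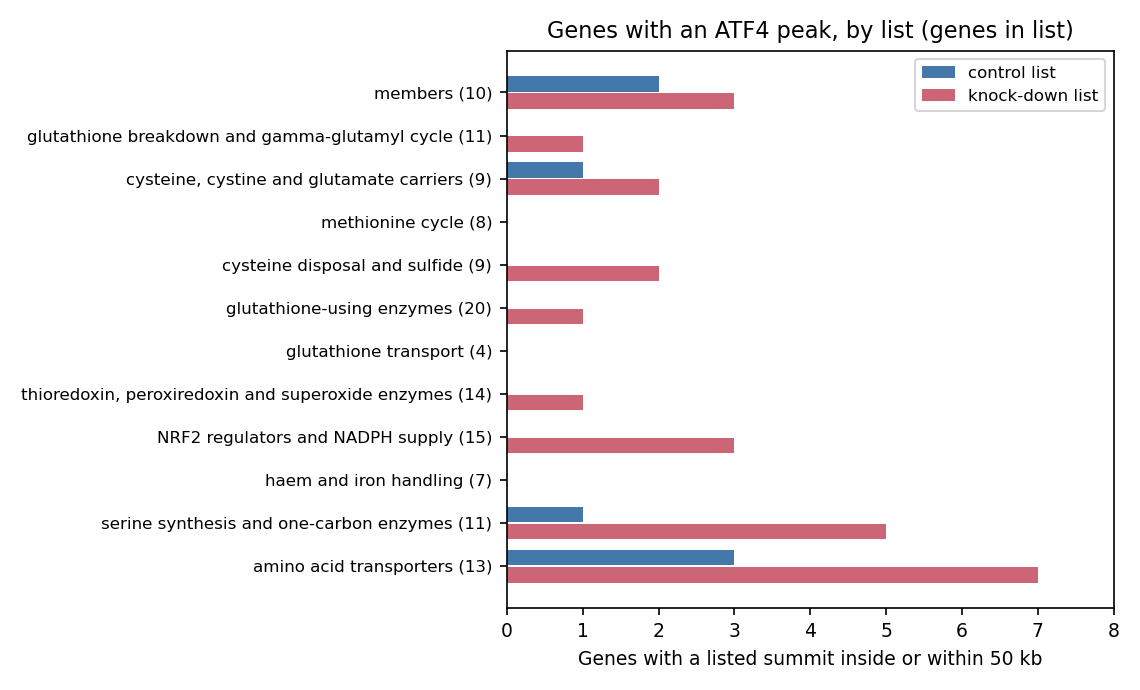
Number of genes with a listed ATF4 summit inside or within 50 kb, by gene list, for the control list (upper bars) and the knock-down list (lower bars). The top row holds the 10 glutathione and cysteine genes, numbers in brackets are the genes in each list, and 3 lists have no gene with a peak in either condition.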

How the data were processed

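The authors deposited 1 peak list for each of the 2 ATF4 libraries. Per the submitters' processing notes, the build was mm10 and the tools were MACS2, deepTools and MultiQC. Which aligner, control library, thresholds and duplicate filter were used was not given in the sources used here. A deposited peak has a start, an end, a rank, a p-value score (in 2 forms), a fold, its length, its summit and its tags. The hairpin named for each list matches the title of 1 ATF4 sample.

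Genes were placed by a RefSeq gene table of build GRCm38.p6, and strand, starts and sequences were read from the matching promoter table (250 bases before to 50 after each start). Distances run from the listed summit to the nearer gene end, or to the nearest annotated start. Lists overlapped where peaks shared at least 1 bp. Tags have exact Poisson intervals at 95% that cover counting error only and are not scaled for depth. No test was run, as each condition has 1 library.

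The members and lists were chosen with earlier results of these data known. Named were all 10 genes, genes of the wider lists with a peak in the window (at most 30), nearest coding genes, and the 5 shared peaks closest to that of Chac1 in log2 fold. The variant TGACGCAA, and the Pycr1 element, were added after the sequences were seen. On simulated data, counting was checked with summits planted past the gene's higher-coordinate end, and with these moved off the chromosome. The motif search was checked with planted elements only. Summits inside genes, before them or just outside the window, and sequences without an element, were not simulated. Alternatives covered the window, peak strength, overlap and motif letters. The software was scipy 1.17.1, numpy 2.4.6, matplotlib 3.10.9 and pandas 2.3.3 under Python 3.11.15.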

Additional observations from a re-analysis of the deposited data

How the results depend on the processing

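Of 31 values under other settings, 23 stayed within 1.5 times the reported value and 8 moved. The count of genes with a control peak and the count of shared peaks each became 1, Chac1, in the upper 50% of the lists by rank and with a fold of at least 8, since the Slc7a11 control peak falls outside both. The knock-down count was 2, Chac1 and Slc7a11, within 5 or 10 kb, by nearest coding gene and in a list as short as the control list, and 3 with Gclm otherwise. The share of all coding genes with a peak was 0.324% (control) and 2.65% (knock-down) within 5 kb, and 1.45% and 10% within 100 kb, as follows from window size. The variant motif was chosen after seeing the data and left the count of genes with an element at 2. No paired analysis was possible because neither condition was repeated. Depth is unknown.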

Other observations

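The paired elements of the Slc7a11 promoter were looked at over all promoters after they had been seen, so the following is a description. Of 21263 promoter windows of coding genes, 9 held at least 2 matches to TGATGNAA. Of these 9, the windows of Slc7a11 and of Aars, the alanyl-tRNA synthetase gene, lay under a peak in both lists, and that of Zfp672 lay under a knock-down peak. The other 6, among them Slc7a7, a light chain that shares the Slc3a2 heavy chain, and Chchd10, a mitochondrial protein gene, lay under no peak in either list.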
